A study of Mus musculus with 14 samples.

Results

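Livers of mice given C18:1-leucine on a MASH diet were compared with livers of mice on the same diet without either compound in their titles. The comparison holds 3 C18:1-leucine libraries (replicates 1, 2 and 4) and 3 MASH libraries (replicates 2, 3 and 4), 6 of the 14 libraries of the study, and they were taken by their title groups. All mice were male C57BL6/J, 8 weeks old at the start, and ate standard chow or the MASH diet for 16 weeks. Treated mice then received C18:1 or C18:1-leucine for 6 more weeks while staying on the MASH diet. The labels give no such further weeks for the MASH libraries. Any difference in age or time on the diet between the groups cannot be told apart from the treatment. The design text also names a vehicle, but the MASH titles do not say whether those mice received it. No source used here gives a dose. The other 8 libraries, 4 from chow liver and 4 from C18:1 liver, shared the estimate of the spread and are quoted as side values. The labels do not say that each library came from its own mouse, so p-values measure only the spread between libraries, which may be technical in part.

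Metabolic dysfunction-associated steatohepatitis (MASH) is a fatty liver with inflammation and scarring. Stressed hepatocytes and resident macrophages (Kupffer cells) release the chemokine CCL2, which draws CCR2-bearing monocytes from the blood, and these become recruited, lipid-associated macrophages beside the fat-laden cells. C18:1 is oleic acid, and C18:1-leucine is an N-acyl amino acid in which leucine is joined to that fatty acid. PPARα, the nuclear receptor that fatty acids activate in hepatocytes, switches on genes of fatty acid oxidation, and the title of the study names PPARα and CCL2 together.

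Total counts of the 6 libraries lay between 40043696 and 51107248. C18:1-leucine replicate 1 carries the treatment tag of C18:1, against its title. Over 487 genes that separated C18:1-leucine replicates 2 and 4 from C18:1 replicates 2 to 4, in a fit without this library, it lay nearer to C18:1-leucine at 390 genes (80.1%). The MASH libraries, measured the same way, lay nearer to C18:1-leucine at 10.3% to 24.6% of these genes. The tag of C18:1 replicate 1 also differs from its title and places that library with MASH. Measured the same way, C18:1 replicate 1 lay nearer to C18:1-leucine at 4.11% of these genes. The genes were chosen to separate C18:1-leucine from C18:1, and the MASH libraries also lay mostly on the C18:1 side. This measure therefore cannot decide between the title and the tag of C18:1 replicate 1. The title groups were kept, and for some of the lists counts are also given without C18:1-leucine replicate 1. Distances between libraries were root mean square log2 differences over the 500 genes that differed most in each pair. C18:1-leucine replicate 4 lay nearest to MASH replicate 4, at 1.89, and at 2.018 and 2.433 from C18:1-leucine replicates 2 and 1. From MASH replicates 2 and 3 it lay at 2.175 and 2.347. The cause was not tested.

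C18:1-leucine replicate 2 carried pancreatic RNA: summed over the list of exocrine pancreas genes it held 1255 CPM (counts scaled to a common library size), against 4.94 and 5.57 CPM in replicates 1 and 4 and 3.98 to 6.16 CPM in the MASH libraries. Amy2a5, pancreatic amylase, had 11685 counts in replicate 2, 0 and 1 in the other C18:1-leucine libraries and 0 in every MASH library. Only 4 of the 25 pancreas genes passed the filter on low counts, and with the list left out the count of called genes stayed at 11. Replicate 1 stood apart in neutrophil genes, with a summed 65.5 CPM against 6.54 and 6.596 CPM in replicates 2 and 4 and 10.97 to 14.7 CPM in MASH.

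Markers of other cell types also moved with the groups. Summed erythroid genes were 1267, 1293 and 649.8 CPM in C18:1-leucine replicates 1, 2 and 4 and 474 to 516 CPM in MASH, so the groups did not overlap. Cholangiocyte genes, which mark bile ducts, were high in replicate 4 of both groups, at 445 CPM in MASH and 262 CPM in C18:1-leucine, against 91.4 to 129 CPM in the other 4 libraries. Hepatocyte genes summed to 90293, 83307 and 68397 CPM in C18:1-leucine and to 57736 to 67685 CPM in MASH. In bulk tissue, fewer cells of a type and less RNA per cell cannot be told apart. The part of these markers in the results was not tested.

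**Figure D1:**
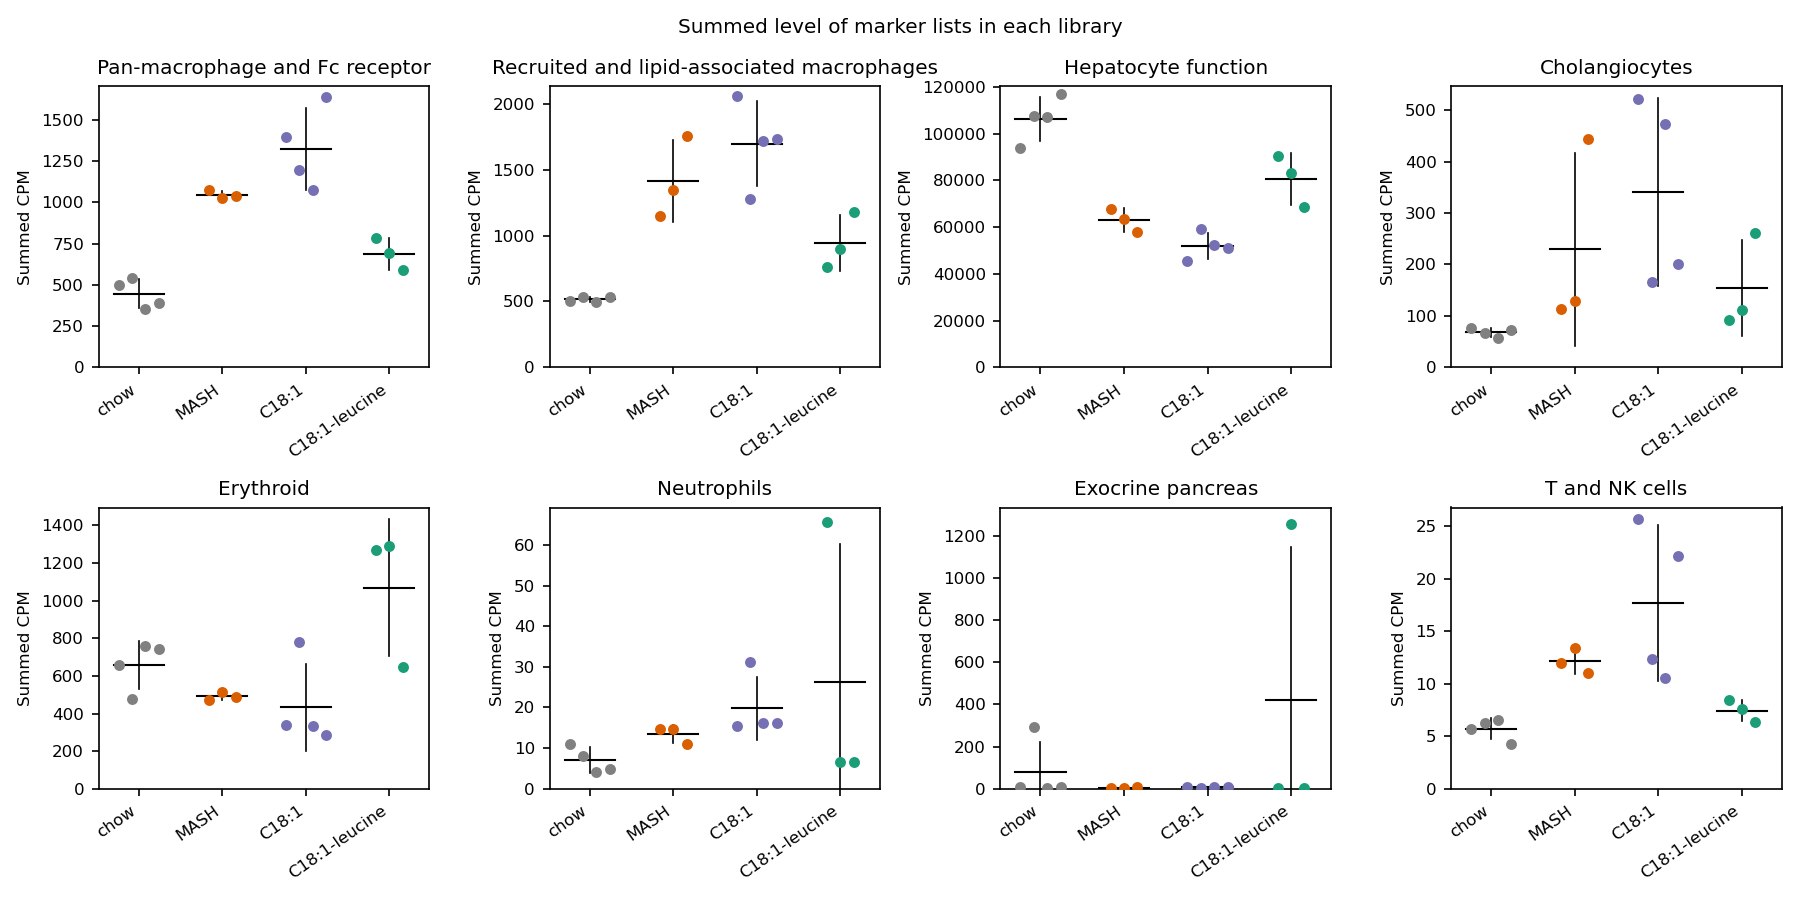
Each point is 1 library and its height the summed level (CPM, linear axis from 0) of a marker list in the chow, MASH, C18:1 and C18:1-leucine groups; bars are the mean and lines 1 SD. The means of both macrophage lists lie lower with C18:1-leucine than in MASH, with overlap in the recruited list, the pancreas panel shows the single C18:1-leucine library at 1255 CPM, and the neutrophil panel shows the one at 65.5 CPM.

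With C18:1-leucine 10 genes fell and 1 rose against MASH, 11 of 15674 tested genes or 0.0702% (edgeR quasi-likelihood test, adjusted p under 0.05). The 10 that fell, 0.0638% of the tested genes, were Mmp13, Mmp12, Ccl2, Lgals3, Cd14, Gm20388, Atoh8, Galnt6, Iqgap1 and Gramd1b, and the one that rose, 0.00638%, was Zfp385b. At an unadjusted p under 0.05, 1579 genes (10.1%) lay lower and 1257 (8.02%) higher. The median log2 fold change of all tested genes was −0.01.

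The number of calls depended on single libraries and on the tool. Without C18:1-leucine replicate 1, without replicate 2 or without MASH replicate 3, edgeR called 0 genes, while 2143, 2060 and 2504 genes were under an unadjusted p of 0.05. Without C18:1-leucine replicate 4 it called 55 genes, and without C18:1 replicate 3, which is in neither group, 61. DESeq2 called 415 higher (2.87%) and 530 lower (3.67%), and limma voom with sample weights 230 higher (1.47%) and 387 lower (2.47%). All 11 genes were also called by both of these tools. The shares of all genes given for each tool are the measure for the list counts below. In a fit of the 6 compared libraries alone, edgeR called 51 genes, which held 7 of the 11 but not Ccl2, Lgals3, Mmp12 or Galnt6. Each of the 11 kept the sign of its fold change in all 14 fits that left out 1 library. None of them overlapped between the groups, so leaving out 1 library could hardly change a sign. Their calls were less stable: of these 14 fits, Gm20388 was called in 10, the most of the 11, and Galnt6 and Mmp12 in 3, the fewest.

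**Figure D2:**
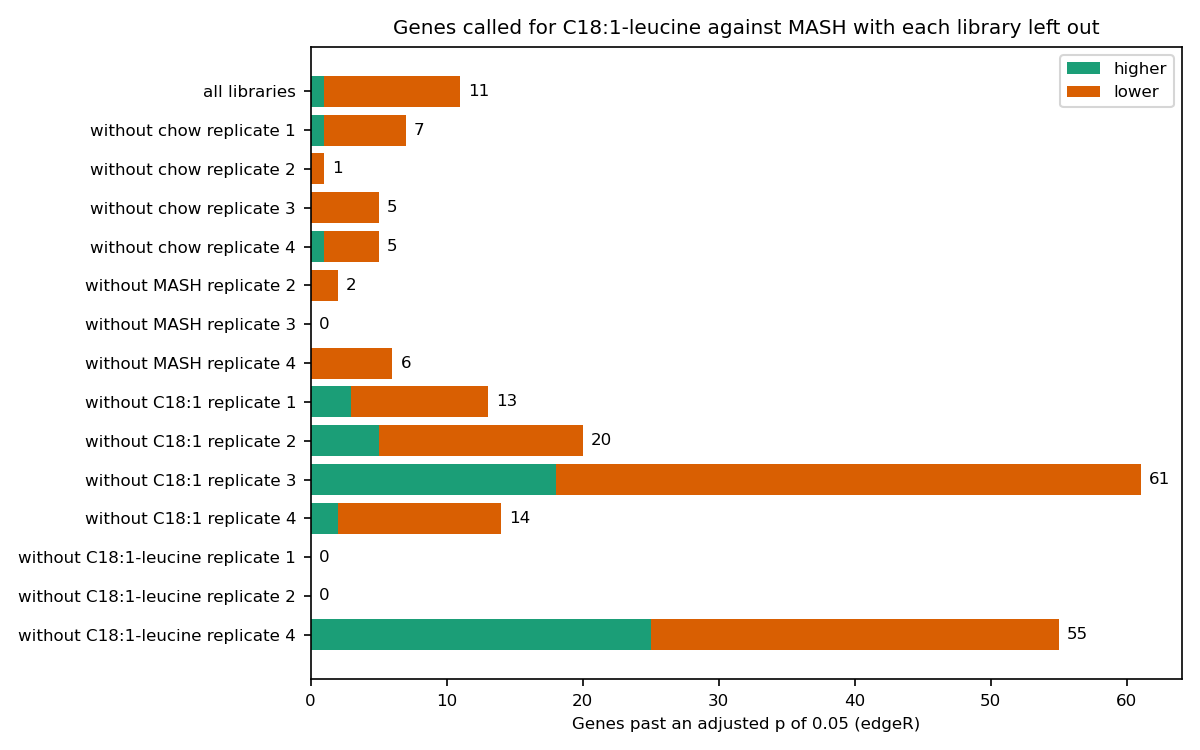
Bars give the number of genes past an adjusted p of 0.05 (edgeR) for C18:1-leucine against MASH, split into higher and lower, with all 14 libraries and with each library left out. The count was 11 with all libraries and ranged from 0 to 61 when 1 was removed.

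Ccl2 (ENSMUSG00000035385, GRCm38 chr11:82035571-82037453, plus strand) encodes the monocyte chemokine named in the title. It stood at 2.69, 3.78 and 4.05 CPM in MASH replicates 2, 3 and 4 and at 0.752, 0.908 and 1.23 CPM in C18:1-leucine replicates 1, 2 and 4. The groups did not overlap, and the log2 fold change was −1.86 ± 0.26 (SE), 3.63-fold lower (edgeR adjusted p = 0.0315). Chow liver held 0.141 ± 0.0473 CPM (SD, n = 4) and C18:1 liver 4.04 ± 0.77 CPM (SD, n = 4), so the treated level lay between chow and MASH. With 1 library left out at a time the log2 fold change lay between −2.07 and −1.71, and with the 6 compared libraries alone it was −1.86 and missed the threshold (edgeR adjusted p = 0.0524). Gm17268 overlaps Ccl2 on the other strand, and no source used here says whether counting used strand.

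Cd14 (chr18:36725067-36726798), the co-receptor that passes bacterial lipopolysaccharide to TLR4, was 17.5, 14.6 and 12.4 CPM in MASH and 6.96, 6.41 and 7.16 CPM with C18:1-leucine. All 3 treated libraries lay below the chow mean of 7.67 ± 0.911 CPM (SD, n = 4), and the log2 fold change was −1.12 ± 0.16 (edgeR adjusted p = 0.0315). Lgals3, galectin-3, a sugar-binding protein abundant in activated macrophages, was 33.3, 54.02 and 56.1 CPM in MASH and 15.9, 18.9 and 23.1 CPM with C18:1-leucine. It fell by 1.31 ± 0.21 on the log2 scale (edgeR adjusted p = 0.0447), and its treated level stayed above the 4.91 ± 0.695 CPM of chow.

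Both called matrix metalloproteinases are secreted proteases: Mmp12 is macrophage elastase and Mmp13 an interstitial collagenase. Mmp13 (chr9:7272514-7283331) was 5.30, 7.46 and 7.16 CPM in MASH and 0.601, 1.24 and 1.43 CPM with C18:1-leucine, a log2 fold change of −2.61 ± 0.39 or 6.09-fold lower (edgeR adjusted p = 0.0348). Mmp12 (chr9:7344381-7369499) was 37.7, 56.2 and 62.8 CPM in MASH and 6.96, 14.5 and 19.4 CPM with C18:1-leucine, a log2 fold change of −1.94 ± 0.31 (edgeR adjusted p = 0.0447). In both genes the highest treated library lay well under the lowest MASH library. Chow liver held 0.144 ± 0.0681 CPM of Mmp13 and 0.465 ± 0.106 CPM of Mmp12 (SD, n = 4), and C18:1 liver 7.15 ± 2.72 and 52.2 ± 10.9 CPM (SD, n = 4).

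RefSeq (GRCm38.p6) gave promoters for 7 of the 11 called genes. The 250 bases upstream of the start site are shown for the 2 metalloproteinase genes, whose levels moved together, with motif matches in capitals. In Mmp13 (chr9:7272264-7272513, plus strand) the capitals are the AP-1 motif TGANTCA, and in Mmp12 (chr9:7344147-7344396, plus strand) the PU.1 motif GAGGAAGT read on the other strand.
Mmp13: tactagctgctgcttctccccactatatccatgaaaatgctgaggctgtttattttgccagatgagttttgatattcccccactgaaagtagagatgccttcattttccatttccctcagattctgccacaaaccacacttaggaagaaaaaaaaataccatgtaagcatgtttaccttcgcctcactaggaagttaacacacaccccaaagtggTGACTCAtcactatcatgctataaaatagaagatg
Mmp12: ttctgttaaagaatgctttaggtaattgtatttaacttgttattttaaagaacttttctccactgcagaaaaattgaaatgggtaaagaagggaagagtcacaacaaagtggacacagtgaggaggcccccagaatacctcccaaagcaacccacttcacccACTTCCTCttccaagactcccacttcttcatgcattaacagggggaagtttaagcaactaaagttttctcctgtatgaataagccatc
A second RefSeq start of Mmp12 (window chr9:7347124-7347373) had an AP-1 match and no PU.1 match. Zfp385b, the gene that rose, had an AP-1 match in 1 of its 4 windows and overlapping NF-κB matches in another, and the windows of Atoh8, Galnt6, Iqgap1 and Lgals3 held none of these motifs. Both strands were searched in 32851 promoter windows of this length, of which 6.75% held the AP-1 motif, 2.44% the PU.1 motif and 3.9% the NF-κB motif. The PPAR direct repeat (2 copies of AGGTCA, 1 base apart), in 0.0335% of windows, was in none of those of the 7 genes, and the motifs do not overlap each other in the windows shown. A match describes the letters only, and no binding was measured here.

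The other called genes differ in role. Iqgap1, a scaffold protein of the actin cytoskeleton, was 45.7, 54.3 and 53.5 CPM in MASH and 29.4, 27.6 and 27.6 CPM with C18:1-leucine (log2 fold change −0.86 ± 0.12, edgeR adjusted p = 0.0315). Gramd1b, which moves cholesterol from the plasma membrane to the endoplasmic reticulum, went from 16.1, 15.6 and 15.02 CPM to 9.22, 8.97 and 8.27 CPM (log2 fold change −0.82 ± 0.12, edgeR adjusted p = 0.0315). Within each group these 2 genes varied little, and the gap between groups was larger than the spread within them.

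Galnt6, an enzyme that starts O-linked glycan chains on proteins, was 4.43, 5.51 and 5.36 CPM in MASH and 2.60, 2.85 and 2.46 CPM with C18:1-leucine (log2 fold change −0.95 ± 0.15, edgeR adjusted p = 0.0447). Atoh8, a basic helix-loop-helix transcription factor, was 25.7, 27.8 and 21.4 CPM in MASH and 13.1, 11.5 and 12.4 CPM with C18:1-leucine (log2 fold change −1.02 ± 0.16, edgeR adjusted p = 0.0348). For Atoh8 the treated libraries lay below chow (21.3 ± 4.71 CPM, SD, n = 4), so its level did not move toward that of chow.

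Zfp385b, a zinc finger protein, was 8.41, 8.28 and 7.18 CPM in MASH and 15.4, 13.6 and 13.3 CPM with C18:1-leucine, close to the chow mean of 14.9 ± 1.82 CPM (SD, n = 4). Its log2 fold change was 0.83 ± 0.13 (edgeR adjusted p = 0.0348). Gm20388 fell from 26.3, 22.996 and 21.8 CPM to 9.73, 11.5 and 12.9 CPM (log2 fold change −1.06 ± 0.14, edgeR adjusted p = 0.0315). This predicted gene spans 4434882 bases of chromosome 8 and overlaps 90 genes on its own strand, so its counts are uncertain.

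**Figure D3:**
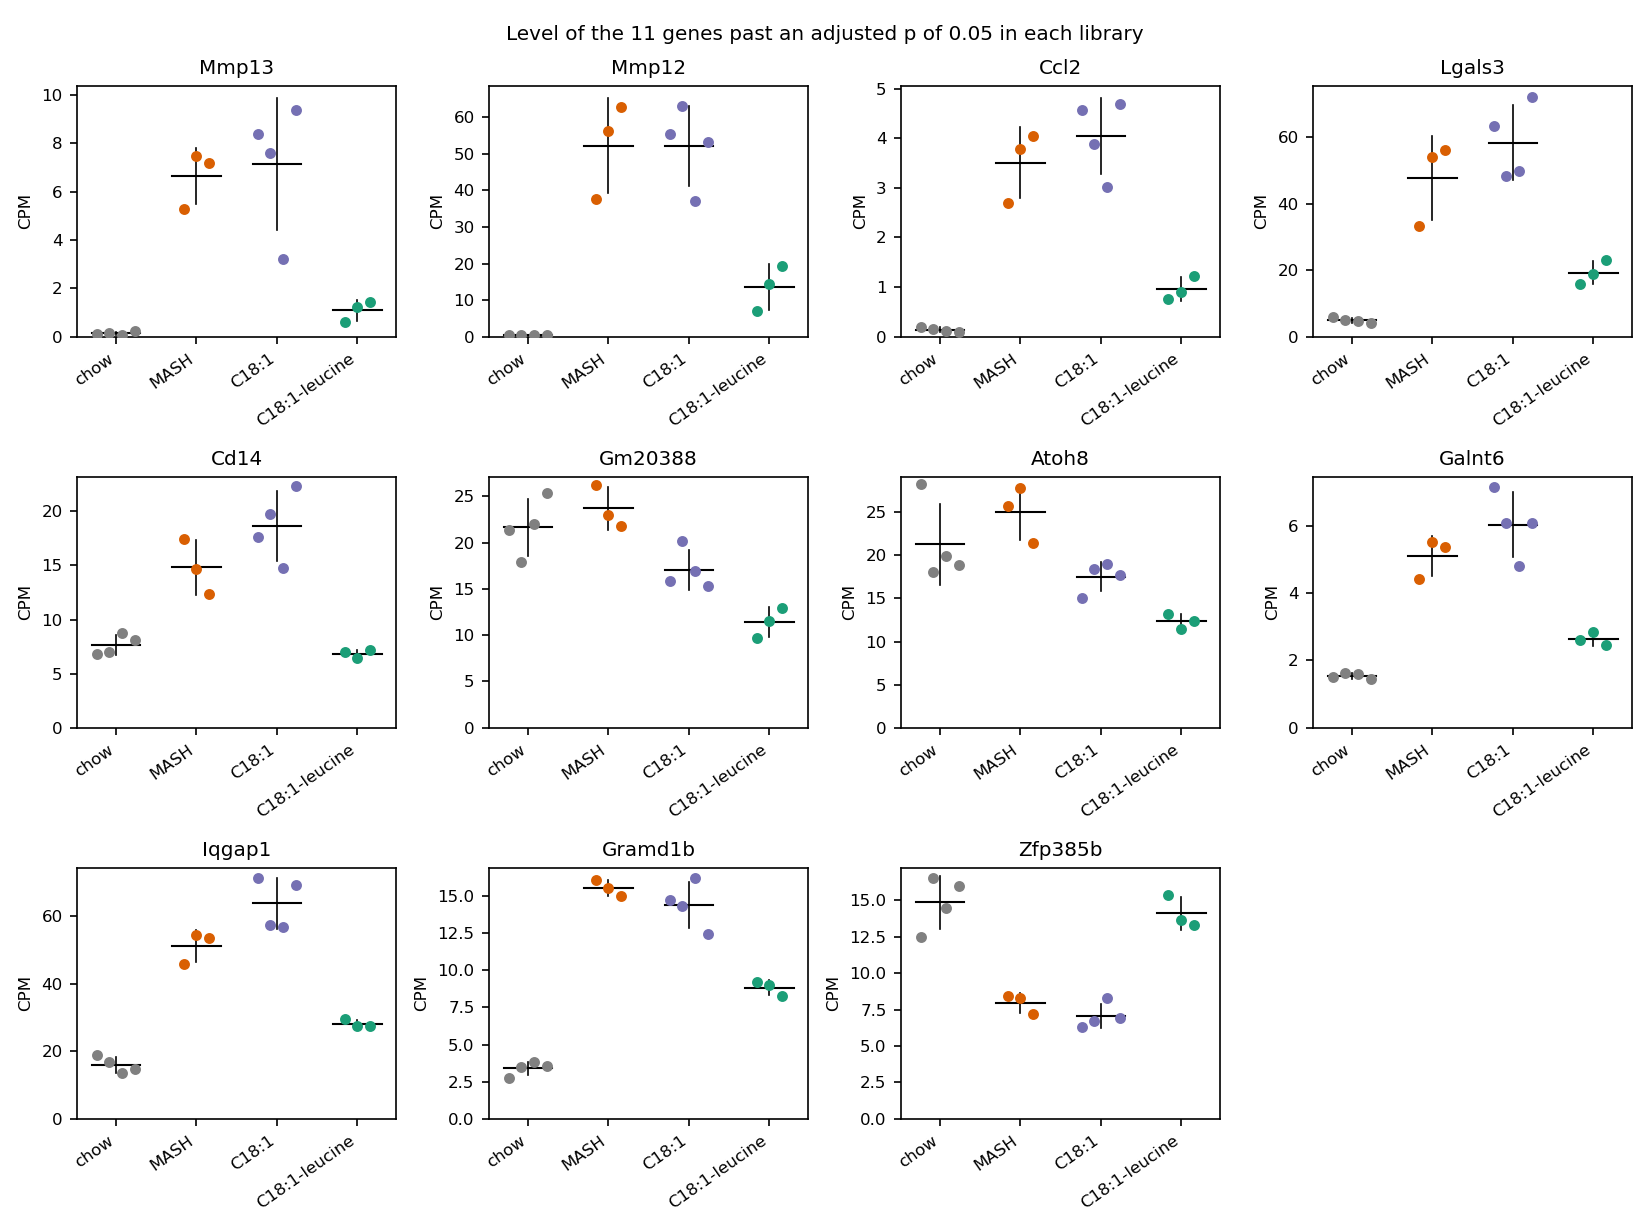
Level in CPM (linear axis from 0) of the 11 called genes in every library of the 4 groups, with the mean (bar) and 1 SD (line). In each panel the 3 C18:1-leucine points lie wholly below, or for Zfp385b wholly above, the 3 MASH points; Ccl2 is at 0.963 CPM on average with C18:1-leucine and at 3.51 CPM in MASH.

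Macrophage genes lay lower across the list. Of 18 pan-macrophage and Fc receptor genes, 1 fell (Cd14), 16 were lower at an unadjusted p under 0.05 and 15 did not overlap between groups, against 10.1% and 12.0% of all genes. Their median log2 fold change was −0.66, DESeq2 called 9 lower and voom 4. Without C18:1-leucine replicate 1, 16 were lower at an unadjusted p under 0.05 (8.12% of all genes), and without replicate 2, 15 (7.00%).

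Cd68, a lysosomal protein of macrophages, was 22.9, 30.3 and 26.3 CPM in MASH and 14.6, 13.7 and 12.9 CPM with C18:1-leucine (log2 fold change −0.95 ± 0.21, edgeR adjusted p = 0.071). Adgre1, which encodes F4/80, was 52.5, 56.2 and 40.9 CPM in MASH and 33.6, 27.05 and 18.8 CPM with C18:1-leucine (log2 fold change −0.91 ± 0.28, edgeR adjusted p = 0.132). Csf1r, the receptor for the main macrophage growth factor, had a log2 fold change of −0.66 ± 0.25 (edgeR adjusted p = 0.197), and C1qa, a complement chain made by macrophages, −0.65 ± 0.21 (edgeR adjusted p = 0.138). None of these 4 passed the threshold, although their groups did not overlap.

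Of 20 genes of recruited and lipid-associated macrophages, 2 fell, Mmp12 and Lgals3, and all 20 had a negative fold change, with a median of −0.70, or −0.42 without MASH replicate 4. At an unadjusted p under 0.05, 12 were lower (10.1% of all genes), 9 without C18:1-leucine replicate 1 (8.12%) and 7 without replicate 2 (7.00%). DESeq2 and voom each called 7. Itgax, which encodes CD11c, was 10.9, 13.6 and 19.2 CPM in MASH and 7.82, 6.64 and 9.59 CPM with C18:1-leucine (log2 fold change −0.86 ± 0.23, edgeR adjusted p = 0.101). Trem2, the lipid-sensing receptor of these cells, was 11.6, 13.5 and 22.4 CPM in MASH and 5.61, 8.51 and 12.5 CPM with C18:1-leucine, so the groups overlapped (log2 fold change −0.84 ± 0.37, edgeR adjusted p = 0.26).

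Gpnmb and Spp1, both secreted or membrane glycoproteins of lipid-associated macrophages, varied widely between libraries. Gpnmb was 39.7, 49.7 and 82.6 CPM in MASH and 6.90, 37.7 and 55.3 CPM with C18:1-leucine (log2 fold change −0.79 ± 0.58, edgeR adjusted p = 0.519). Spp1, osteopontin, which bile duct cells also make, was 64.9, 79.7 and 336 CPM in MASH and 50.01, 66.2 and 184 CPM with C18:1-leucine (log2 fold change −0.68 ± 0.69, edgeR adjusted p = 0.657). In both genes replicate 4 was the highest of each group, as were the cholangiocyte genes.

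Ccr2, the receptor for CCL2 on monocytes, was 6.44, 8.26 and 16.7 CPM in MASH and 5.28, 5.37 and 7.94 CPM with C18:1-leucine, and MASH replicate 4 was far above the other 2 MASH libraries. Its log2 fold change was −0.76 ± 0.30 (edgeR adjusted p = 0.215). Kupffer cell identity genes followed less evenly: of 13 tested, edgeR, DESeq2 and voom called 0. At an unadjusted p under 0.05, 3 were lower and 1 higher, against 10.1% and 8.02% of all genes. Clec4f, a Kupffer cell lectin, was 214, 153 and 111 CPM in MASH and 157, 109.6 and 27.8 CPM with C18:1-leucine. C18:1-leucine replicate 4 was lowest by a wide margin, and the log2 fold change was −0.70 ± 0.52 (edgeR adjusted p = 0.52).

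Among chemokine, cytokine and adhesion genes, of which 28 of 30 were tested, Ccl2 alone fell by edgeR. At an unadjusted p under 0.05, 17 were lower (10.1% of all genes), and the median log2 fold change was −1.19. DESeq2 called 12 lower and voom 7. Without C18:1-leucine replicate 1, 16 were lower at an unadjusted p under 0.05, and without replicate 2, 15, against 8.12% and 7.00% of all genes. No member of the list was higher at that p in these fits.

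Ccl7, a second ligand of CCR2, was 0.538, 0.984 and 0.614 CPM in MASH and 0.129, 0.13 and 0.201 CPM with C18:1-leucine (log2 fold change −2.19 ± 0.49, edgeR adjusted p = 0.0725). Il1rn, the natural blocker of the interleukin-1 receptor, was 13.7, 15.6 and 12.6 CPM in MASH and 4.53, 6.61 and 6.57 CPM with C18:1-leucine (log2 fold change −1.24 ± 0.22, edgeR adjusted p = 0.055). Neither gene overlapped between the groups, and neither passed the threshold. Ccl5 and Cxcl10, which attract T cells, had log2 fold changes of −1.46 ± 0.47 and −1.12 ± 0.36 (edgeR adjusted p = 0.141 and 0.143), and Cxcl16 −0.53 ± 0.19 (edgeR adjusted p = 0.176). Tnf was under 1 CPM in all 6 libraries, with a log2 fold change of −1.22 ± 0.59 (edgeR adjusted p = 0.29).

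Toll-like receptor and inflammasome genes gave 0 calls by edgeR and voom and 4 by DESeq2, with a median log2 fold change of −0.64. At an unadjusted p under 0.05, 9 of 18 were lower, against 10.1% of all genes. Tlr4, the lipopolysaccharide receptor that CD14 serves, was 3.75, 3.78 and 3.81 CPM in MASH and 2.41, 2.41 and 1.57 CPM with C18:1-leucine (log2 fold change −0.83 ± 0.22, edgeR adjusted p = 0.0978). The 3 MASH values were nearly equal and all above the treated ones.

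Interferon response genes gave 0 calls by edgeR, 5 lower by DESeq2 and 4 by voom. Of 20 genes, 19 had a negative fold change, with a median of −0.42, and 9 were lower at an unadjusted p under 0.05 (10.1% of all genes). The oligoadenylate synthetases, enzymes that sense viral RNA, stood lowest by p: Oasl2 was 12.8, 14.8 and 15.9 CPM in MASH and 7.15, 8.90 and 9.995 CPM with C18:1-leucine (log2 fold change −0.74 ± 0.15, edgeR adjusted p = 0.0702). Oas3 had a log2 fold change of −1.28 ± 0.31 and Oas1a −0.89 ± 0.22 (edgeR adjusted p = 0.0803 and 0.0818). Oas1a has close copies in the genome, so its share of reads is uncertain.

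All 16 genes of MHC class II and antigen presentation had negative fold changes, with a median of −0.85. By edgeR 0 were called, 11 were lower at an unadjusted p under 0.05 (10.1% of all genes), DESeq2 called 7 and voom 2. H2-DMa, which helps load peptides onto class II, was 9.69, 10.2 and 11.7 CPM in MASH and 4.53, 5.45 and 5.46 CPM with C18:1-leucine (log2 fold change −1.04 ± 0.22, edgeR adjusted p = 0.071). Cd74, the class II invariant chain, was 253, 214 and 285 CPM in MASH and 105, 146 and 162 CPM with C18:1-leucine (log2 fold change −0.87 ± 0.30, edgeR adjusted p = 0.162). The class II chain H2-Aa (−0.90 ± 0.33, edgeR adjusted p = 0.183) and the class I peptide transporter Tap1 (−0.44 ± 0.12, edgeR adjusted p = 0.101) did not overlap between the groups.

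Summed T and NK cell genes stood at 8.399, 7.55 and 6.35 CPM with C18:1-leucine and between 11.03 and 13.4 CPM in MASH, without overlap. Of 18 genes, 0 were called by edgeR, DESeq2 or voom, and the median log2 fold change was −0.998. At an unadjusted p under 0.05, 9 were lower, against 10.1% of all genes. Cd8a, the co-receptor of cytotoxic T cells, was 0.952, 1.12 and 0.778 CPM in MASH and 0.516, 0.233 and 0.224 CPM with C18:1-leucine (log2 fold change −1.53 ± 0.56, edgeR adjusted p = 0.181). Pdcd1, which encodes the inhibitory receptor PD-1, was 0.497, 1.10 and 0.368 CPM in MASH and 0.215, 0.0519 and 0.112 CPM with C18:1-leucine (log2 fold change −2.31 ± 0.80, edgeR adjusted p = 0.162). At these low levels the intervals were wide, from −4.03 to −0.59 for Pdcd1.

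Scar-forming genes moved less evenly than macrophage genes. Of 18 collagen chains, 0 were called by edgeR or voom and 1 by DESeq2, 15 had a negative fold change, and 2 were lower at an unadjusted p under 0.05, against 10.1% of all genes. Col1a1, the main chain of scar collagen, was 25.3, 48.8 and 95.1 CPM in MASH and 42.9, 20.05 and 38.5 CPM with C18:1-leucine, and Col3a1, which forms fibrils with it, was 77.8, 149.6 and 253 CPM in MASH and 85.8, 72.4 and 125 CPM with C18:1-leucine. In both genes MASH replicate 2 lay within the treated range, with log2 fold changes of −0.74 ± 0.50 and −0.76 ± 0.44 (edgeR adjusted p = 0.475 and 0.387). Chow liver held 2.73 ± 0.978 CPM of Col1a1 (SD, n = 4). Without MASH replicate 4 the median of the list went from −0.35 to −0.09.

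Col4a1, a basement membrane chain, and Col12a1, a fibril-associated one, did not overlap between groups. Col4a1 was 85.2, 120.3 and 112 CPM in MASH and 60.1, 67.8 and 84.99 CPM with C18:1-leucine, with a log2 fold change of −0.58 ± 0.19 (edgeR adjusted p = 0.142). Col12a1 was 7.72, 13.1 and 8.76 CPM in MASH and 4.75, 5.73 and 6.17 CPM with C18:1-leucine, with a log2 fold change of −0.83 ± 0.22 (edgeR adjusted p = 0.0964).

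Among 24 genes of matrix remodelling and crosslinking, Mmp13 fell and 8 were lower at an unadjusted p under 0.05 (10.1% of all genes), with a median of −0.21. DESeq2 called 4 and voom 3. Timp1, an inhibitor of matrix proteases, was 1.62, 2.59 and 4.07 CPM in MASH and 1.33, 0.804 and 1.92 CPM with C18:1-leucine, overlapping between groups (log2 fold change −1.02 ± 0.44, edgeR adjusted p = 0.247). Without MASH replicate 4, the MASH library with the high cholangiocyte genes, the median of this list was 0.06, a change of sign.

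Markers of stellate cells, the liver's main collagen-forming cells, were balanced: 8 of 16 had a negative fold change, and edgeR, DESeq2 and voom called 0. At an unadjusted p under 0.05, 1 of these markers was lower, against 10.1% of all genes. Their summed level was 539.5, 454 and 499 CPM with C18:1-leucine and 473 to 554 CPM in MASH. Acta2, which encodes smooth muscle actin, was 1.86, 7.51 and 3.38 CPM in MASH and 3.46, 2.23 and 3.22 CPM with C18:1-leucine (log2 fold change −0.51 ± 0.60, edgeR adjusted p = 0.709). The 95% interval of Acta2 ran from −1.80 to 0.78.

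Of 18 tested TGF-β and PDGF signalling genes (19 listed), 5 were lower at an unadjusted p under 0.05, against 10.1% of all genes. EdgeR called 0, DESeq2 3 and voom 2. Tgfb1, the main profibrotic cytokine, was 13.3, 15.7 and 14.5 CPM in MASH and 12.4, 9.18 and 8.47 CPM with C18:1-leucine (log2 fold change −0.53 ± 0.15, edgeR adjusted p = 0.112). Smad7, an inhibitor that TGF-β induces, was 17.4, 20.5 and 17.2 CPM in MASH and 12.6, 12.5 and 12.7 CPM with C18:1-leucine (log2 fold change −0.54 ± 0.13, edgeR adjusted p = 0.0755). Neither gene overlapped between groups. Sox9, a transcription factor of bile duct cells, had a log2 fold change of −0.70 ± 0.19 (edgeR adjusted p = 0.101), with all 3 treated libraries lower. In its list, the 15 cholangiocyte genes, 2 were lower at an unadjusted p under 0.05 (10.1% of all genes) and edgeR called 0. The median of that list was −0.22, and 0.81 without MASH replicate 4, a change of sign.

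**Figure D4:**
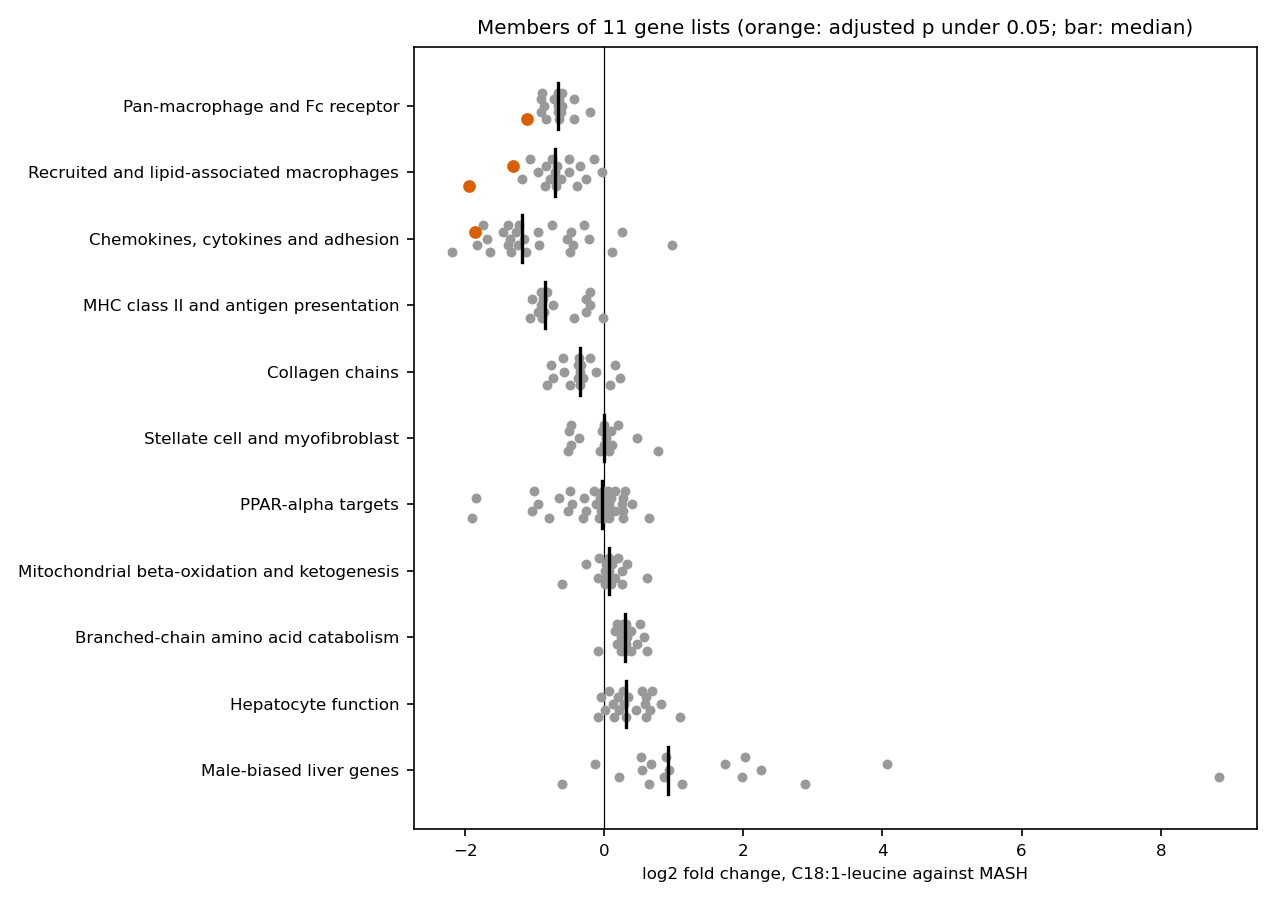
Each point is the log2 fold change (C18:1-leucine against MASH) of 1 tested member of 11 gene lists; orange points passed an adjusted p of 0.05 (edgeR) and black bars are list medians. Medians run from −1.19 for chemokines, cytokines and adhesion to 0.91 for male-biased liver genes, and PPARα targets and stellate genes centre near 0.

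Genes that PPARα drives had no common direction, with 15 positive and 21 negative fold changes. Of these 36 targets, edgeR called 0, and DESeq2 and voom called 3 lower. At an unadjusted p under 0.05, 6 were lower and 1 higher, against 10.1% and 8.02% of all genes, and the median log2 fold change was −0.03. This median was 0.16 without MASH replicate 2 and −0.16 without MASH replicate 4. Ppara itself was 133, 151 and 114 CPM in MASH and 155, 172 and 129.8 CPM with C18:1-leucine, overlapping between groups (log2 fold change 0.19 ± 0.15, 95% interval −0.13 to 0.52, edgeR adjusted p = 0.542). Cpt1a, which admits fatty acids to the mitochondrion, was 750.3, 563 and 684 CPM in MASH and 673, 753 and 793 CPM with C18:1-leucine (log2 fold change 0.15 ± 0.14, edgeR adjusted p = 0.618).

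Cyp4a14, a fatty acid hydroxylase strongly induced by PPARα, was 3034, 901 and 389 CPM in MASH and 828, 563 and 1095 CPM with C18:1-leucine. MASH replicate 2 held several times the level of the other MASH libraries, and the log2 fold change was −0.80 ± 0.66 (edgeR adjusted p = 0.572).

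Pdk4 and Ucp2 lay lower without overlap, and Fgf21 overlapped between groups. Pdk4, a kinase that spares glucose by blocking pyruvate dehydrogenase, was 113, 41.99 and 34.9 CPM in MASH and 20.7, 14.2 and 18.1 CPM with C18:1-leucine (log2 fold change −1.84 ± 0.41, edgeR adjusted p = 0.0748). Fgf21, a fasting hormone of the liver, was 51.5, 12.7 and 12.3 CPM in MASH and 3.42, 3.66 and 13.4 CPM with C18:1-leucine (log2 fold change −1.90 ± 0.71, edgeR adjusted p = 0.193). Ucp2, a mitochondrial carrier that macrophages also express, was 74.4, 84.9 and 68.1 CPM in MASH and 45.05, 51.5 and 47.9 CPM with C18:1-leucine (log2 fold change −0.65 ± 0.13, edgeR adjusted p = 0.0684). MASH replicate 2 was the highest library for Pdk4, Fgf21 and Cyp4a14.

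Lipid droplet genes gave 0 calls by edgeR, 2 lower by DESeq2 and 1 by voom. At an unadjusted p under 0.05, 3 of 16 tested genes (17 listed) were lower, against 10.1% of all genes. Plin2, the coat protein of lipid droplets, was 1645, 1047 and 1045 CPM in MASH and 469, 571 and 780.3 CPM with C18:1-leucine, around the chow mean of 573 ± 186 CPM (SD, n = 4). Its log2 fold change was −1.04 ± 0.26 (edgeR adjusted p = 0.0878). Hilpda, which blocks the lipase of lipid droplets, was 10.4, 7.23 and 5.38 CPM in MASH and 3.14, 3.32 and 3.94 CPM with C18:1-leucine (log2 fold change −1.14 ± 0.20, edgeR adjusted p = 0.055).

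Of 15 fatty acid uptake and binding genes, edgeR called 0, DESeq2 2 lower and voom 1, and 6 were lower at an unadjusted p under 0.05 (10.1% of all genes). Lpl, which frees fatty acids from circulating triglyceride, was 151, 126 and 216 CPM in MASH and 91.7, 82.4 and 106 CPM with C18:1-leucine (log2 fold change −0.81 ± 0.21, edgeR adjusted p = 0.0878). Cd36, a fatty acid transporter, was 294, 299.7 and 246 CPM in MASH and 148, 199.7 and 255 CPM with C18:1-leucine, overlapping between groups (log2 fold change −0.48 ± 0.17, edgeR adjusted p = 0.177). Among 18 genes of mitochondrial oxidation and ketogenesis, 4 were higher and 1 lower at an unadjusted p under 0.05 (8.02% and 10.1% of all genes). EdgeR and voom called 0 of them and DESeq2 2 higher. Fatty acid synthesis genes had 1 of 18 higher and 1 lower at that p, 0 calls by edgeR and 1 higher by each of the other tools.

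Genes of hepatocyte function lay higher, with 19 of 21 positive, a median of 0.31 (0.48 without C18:1-leucine replicate 4) and 9 higher at an unadjusted p under 0.05, against 8.02% of all genes. EdgeR called 0, DESeq2 3 and voom 2. Cyp1a2, a detoxifying enzyme of the pericentral hepatocytes, was 95.7, 181 and 119 CPM in MASH and 219, 225 and 402 CPM with C18:1-leucine (log2 fold change 1.10 ± 0.31, edgeR adjusted p = 0.11). Cyp2e1, another of these enzymes, had a log2 fold change of 0.55 ± 0.17 (edgeR adjusted p = 0.129). Alb, albumin, was 40092, 36844 and 36065 CPM in MASH and 55528, 49147 and 38527 CPM with C18:1-leucine, and replicate 4 lay within the MASH range (log2 fold change 0.34 ± 0.16, edgeR adjusted p = 0.271). Without C18:1-leucine replicate 1, 4 genes of this list were higher at an unadjusted p under 0.05 (5.34% of all genes), and without replicate 2 also 4 (5.89%).

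Of 20 genes of bile acid synthesis and transport, 7 were higher and 3 lower at an unadjusted p under 0.05 (8.02% and 10.1% of all genes), and edgeR called 0. DESeq2 called 5 higher and 1 lower, and voom 4 higher. Slc10a1, the sodium-dependent bile acid carrier NTCP, was 322, 268 and 288 CPM in MASH and 549.7, 479 and 438 CPM with C18:1-leucine (log2 fold change 0.74 ± 0.15, edgeR adjusted p = 0.0702). Slco1a1, a carrier of organic anions, was 102, 70.6 and 114 CPM in MASH and 294, 394 and 261 CPM with C18:1-leucine (log2 fold change 1.73 ± 0.35, edgeR adjusted p = 0.071). Both treated means, 489 and 316 CPM, stood beside chow means of 565 ± 51.9 and 353 ± 30.6 CPM (SD, n = 4).

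Male-biased liver genes, which pulsatile growth hormone maintains, had 16 of 18 members positive, with a median of 0.91. At an unadjusted p under 0.05, 12 were higher, and 12 were higher without overlap between groups, against 8.02% and 10.3% of all genes. EdgeR called 0, DESeq2 11 and voom 7. Without C18:1-leucine replicate 1, 13 were higher at an unadjusted p under 0.05 (5.34% of all genes), and without replicate 2, 12 (5.89%). Female-biased liver genes did not lie lower as a list: of 10 tested (16 listed), 6 were positive and 4 negative, with a median of 0.60. At an unadjusted p under 0.05, 1 of them was higher and 1 lower. Their summed level was 49.98 to 72.05 CPM with C18:1-leucine and 30.8 to 53.4 CPM in MASH. Mup21, a major urinary protein gene, was 40.9, 47.9 and 37.9 CPM in MASH and 69.2, 80.2 and 92.3 CPM with C18:1-leucine (log2 fold change 0.93 ± 0.17, edgeR adjusted p = 0.055).

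Serpina1e, one of the α1-antitrypsin genes, was 436, 359 and 372 CPM in MASH and 2645, 2261 and 641 CPM with C18:1-leucine, and replicate 4 lay nearest to MASH (log2 fold change 2.25 ± 0.42, edgeR adjusted p = 0.0634). Chow liver held 7003 ± 719.5 CPM (SD, n = 4). Mup21 and Serpina1e belong to families of close copies, so the split of reads among copies is uncertain.

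Branched-chain amino acid catabolism, the pathway that breaks down leucine, isoleucine and valine, lay higher by small amounts. Of its 22 genes 21 were tested, 20 were positive, 16 were higher at an unadjusted p under 0.05 and 17 higher without overlap between groups, against 8.02% and 10.3% of all genes, with a median of 0.29. EdgeR called 0, DESeq2 9 and voom 4, and without C18:1-leucine replicate 1 or 2 the count at an unadjusted p under 0.05 was 15 or 10, against 5.34% or 5.89% of all genes. Bckdha, a subunit of the dehydrogenase that commits all 3 amino acids to breakdown, was 222, 217 and 223 CPM in MASH and 297, 298 and 266 CPM with C18:1-leucine (log2 fold change 0.38 ± 0.09, edgeR adjusted p = 0.0803). Auh, an enzyme of leucine breakdown, and Pcca, a subunit of propionyl-CoA carboxylase, had log2 fold changes of 0.31 ± 0.08 and 0.26 ± 0.07 (edgeR adjusted p = 0.0803 and 0.0878). The summed hepatocyte and respiratory chain genes moved the same way.

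All 18 respiratory chain subunits had positive fold changes, with a median of 0.20, and 17 were higher without overlap between groups, against 10.3% of all genes. At an unadjusted p under 0.05, 11 were higher (8.02% of all genes), with 0 calls by edgeR and voom and 7 by DESeq2. Sdhb, of complex II, was 133, 111 and 124 CPM in MASH and 159.7, 169.97 and 151 CPM with C18:1-leucine (log2 fold change 0.38 ± 0.11, edgeR adjusted p = 0.117). Among 11 urea cycle and ammonia genes, 4 were higher at an unadjusted p under 0.05 (8.02% of all genes), and the 3 tools called 0.

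Leucine enters cells through heterodimers of the heavy chain Slc3a2 and a light chain such as Slc7a8, or through Slc43a1. Of 20 genes of leucine transport and mTORC1 sensing, 4 were lower and 1 higher at an unadjusted p under 0.05 (10.1% and 8.02% of all genes). EdgeR called 0, DESeq2 2 lower and 1 higher and voom 3 lower. Slc3a2 was 46.3, 53.1 and 38.6 CPM in MASH and 27.4, 30.9 and 31.8 CPM with C18:1-leucine (log2 fold change −0.61 ± 0.12, edgeR adjusted p = 0.0603), and Slc7a8 had a log2 fold change of −0.93 ± 0.22 (edgeR adjusted p = 0.0766). Slc43a1 went the other way, at 1.64, 1.602 and 1.49 CPM in MASH and 9.13, 5.58 and 2.44 CPM with C18:1-leucine (log2 fold change 1.86 ± 0.49, edgeR adjusted p = 0.0978).

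N-acyl amino acids are made and cleaved by a small set of enzymes, of which 16 were tested. Of these, 8 were positive and 8 negative, with a median of 0.0075. At an unadjusted p under 0.05, 3 were higher and 1 lower, against 8.02% and 10.1% of all genes. EdgeR called 0, and DESeq2 and voom each called 2 higher. Acy1, aminoacylase 1, which cleaves acylated amino acids, was 16.7, 23.5 and 21.3 CPM in MASH and 37.2, 36.6 and 26.03 CPM with C18:1-leucine (log2 fold change 0.70 ± 0.19, edgeR adjusted p = 0.108). The groups did not overlap, and chow liver held 38.2 ± 4.78 CPM (SD, n = 4). Whether Acy1 acts on C18:1-leucine was not tested.

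**Figure D5:**
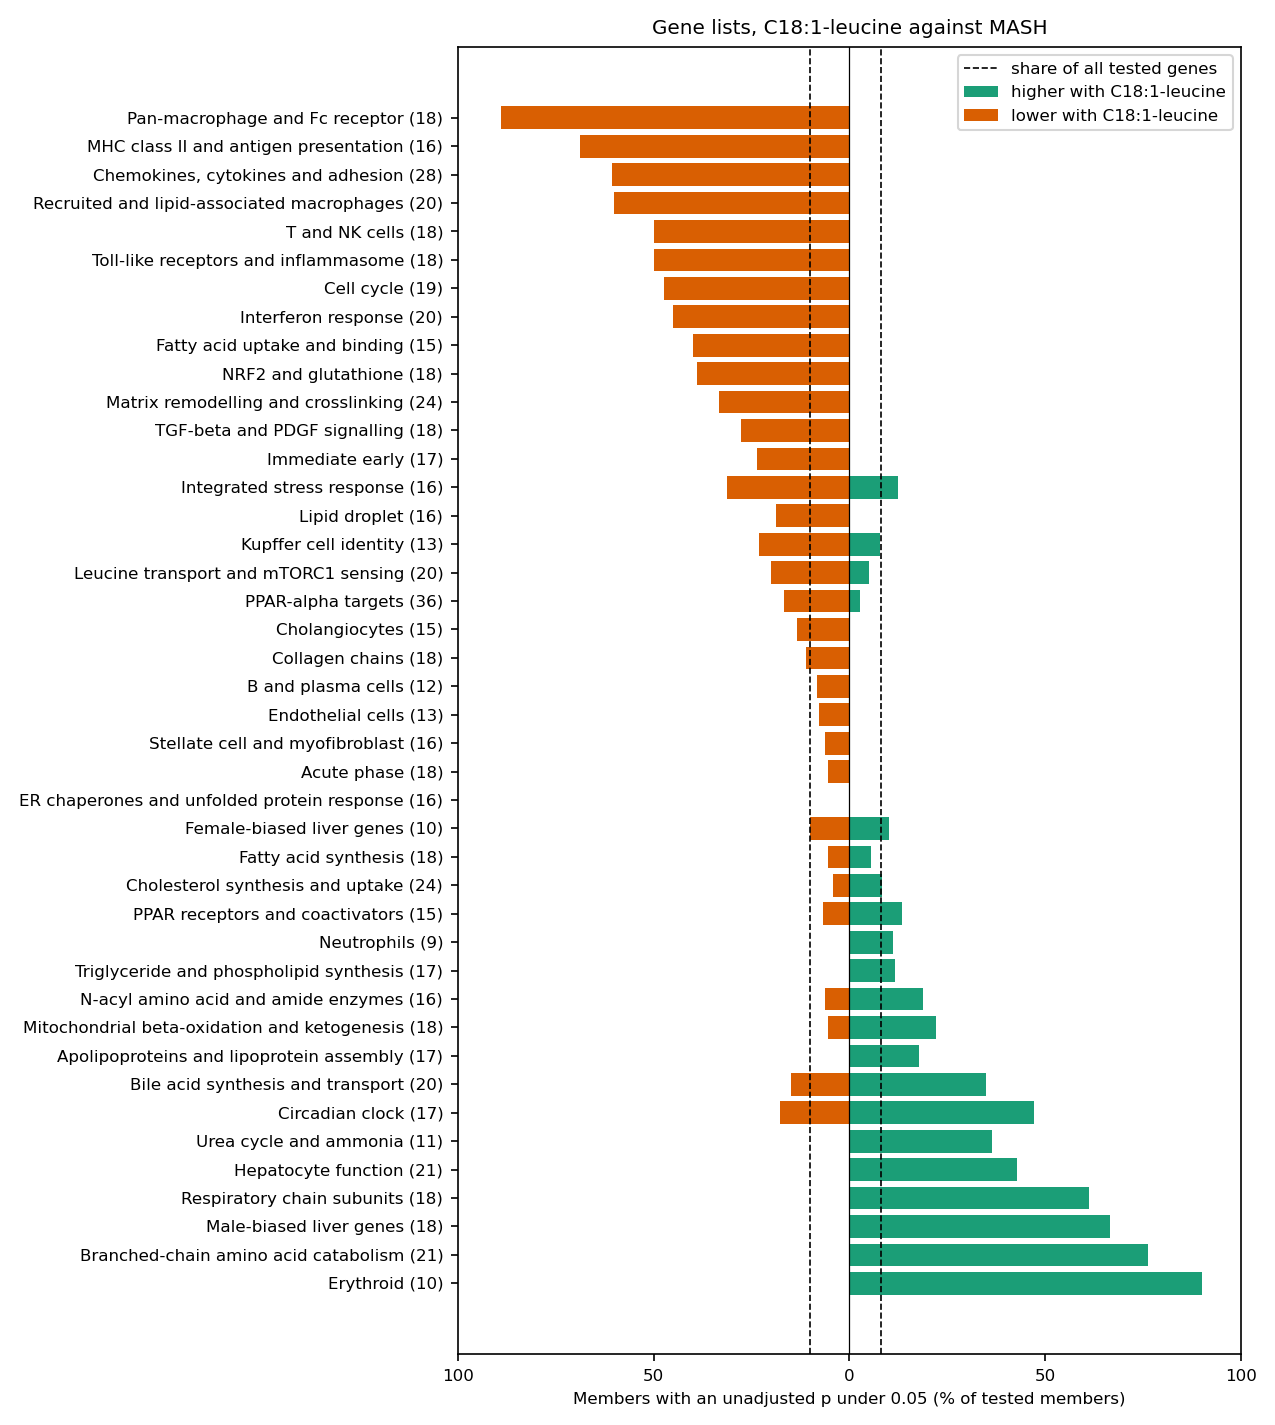
Share of tested members (number in brackets) of each list with 9 or more of them, which leaves out the pancreas and adipose lists (4 tested members each), with an unadjusted p under 0.05 that lay lower (orange, to the left) or higher (green, to the right) with C18:1-leucine; dashed lines mark all tested genes, 10.1% lower and 8.02% higher. Of the lists drawn, macrophage, antigen presentation and chemokine lists extend far to the left and erythroid and branched-chain amino acid lists far to the right.

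Integrated stress response genes went both ways, with 5 of 16 lower and 2 higher at an unadjusted p under 0.05 (10.1% and 8.02% of all genes). EdgeR called 0, and DESeq2 and voom each called 2 higher and 1 lower. Asns, asparagine synthetase, a classic ATF4 target, was 0.497, 1.21 and 0.655 CPM in MASH and 2.64, 3.63 and 3.24 CPM with C18:1-leucine (log2 fold change 2.01 ± 0.44, edgeR adjusted p = 0.071). Shmt2, the mitochondrial serine hydroxymethyltransferase, had a log2 fold change of 0.37 ± 0.09 (edgeR adjusted p = 0.0794). In both genes the treated libraries were higher without overlap. Of 16 ER chaperone and unfolded protein response genes, 0 were called by any of the 3 tools and 0 had an unadjusted p under 0.05.

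NRF2 and glutathione genes gave 0 calls by edgeR, 4 lower by DESeq2 and 3 by voom, with a median of −0.48. At an unadjusted p under 0.05, 7 of 18 were lower, against 10.1% of all genes. Gclc, the rate-limiting subunit of glutathione synthesis, was 386, 461 and 417 CPM in MASH and 227, 256 and 219.9 CPM with C18:1-leucine, without overlap, and chow liver held 289 ± 74.7 CPM (SD, n = 4). Its log2 fold change was −0.85 ± 0.21 (edgeR adjusted p = 0.0818). Fosb, a member of the AP-1 family, was 1.80, 2.40 and 3.03 CPM in MASH and 0.58, 0.363 and 0.514 CPM with C18:1-leucine (log2 fold change −2.30 ± 0.62, edgeR adjusted p = 0.102). It belongs to a list of 17 immediate early genes, of which 4 were lower at an unadjusted p under 0.05, against 10.1% of all genes. That list had 0 calls by edgeR, 2 by DESeq2 and 1 by voom.

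Clock genes of opposite phase lay on opposite sides. Bmal1, an activator of the circadian clock, was 26.01, 10.6 and 14.8 CPM in MASH and 4.73, 3.86 and 5.21 CPM with C18:1-leucine (log2 fold change −1.90 ± 0.42, edgeR adjusted p = 0.0725), and its partner Clock had a log2 fold change of −0.47 ± 0.12 (edgeR adjusted p = 0.0951). Per3, which the activators switch on, was 2.03, 12.8 and 7.92 CPM in MASH and 46.4, 41.9 and 21.5 CPM with C18:1-leucine (log2 fold change 2.28 ± 0.58, edgeR adjusted p = 0.0951). Of 17 clock genes, 8 were higher and 3 lower at an unadjusted p under 0.05, against 8.02% and 10.1% of all genes. EdgeR called 0, DESeq2 3 in each direction and voom 4 higher and 2 lower. No source used here gives the time of day at which tissue was taken.

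Erythroid genes lay higher in all 10 tested members of 13, 9 at an unadjusted p under 0.05 (8.02% of all genes). EdgeR called 0, DESeq2 7 and voom 2. Klf1, the master regulator of red cell genes, was 1.20, 1.35 and 1.49 CPM in MASH and 4.90, 4.07 and 2.39 CPM with C18:1-leucine (log2 fold change 1.49 ± 0.29, edgeR adjusted p = 0.0684). C18:1-leucine replicate 4 was lowest of the treated libraries in Klf1 and in the summed list. Neutrophil genes had a median log2 fold change of 1.37 over 9 tested genes of 12, and −1.30 without C18:1-leucine replicate 1, so their direction rested on that library.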

How the data were processed

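RNA of 14 mouse liver libraries was sequenced. The authors deposited 1 table of expected counts per Ensembl gene, of which 5.14% to 5.76% were fractional in the 6 compared libraries, so they were rounded. Per the submitters' processing notes HTSeq and DESeq2 1.42.1 were used; no source used here says what each did or whether counting used strand. Deposited comparison tables, also by the authors, hold log2 fold changes and p-values; no source used here gives a key to their group letters.

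Groups came from titles, with OA read as C18:1 and OAL as C18:1-leucine. Genes were kept by edgeR's filterByExpr (minimum count 10, minimum total 15, smallest group 3), leaving 15674 of 45706. A model of group means over the 14 libraries was fitted in edgeR 4.0.16 (R 4.3.3) after TMM scaling, with the robust quasi-likelihood test, two-sided, and Benjamini-Hochberg adjustment over all tested genes (threshold 0.05). CPM, of single genes and of summed lists, uses TMM-scaled library sizes. Symbols and coordinates are from GENCODE M21 on GRCm38, promoters from RefSeq GRCm38.p6. The script was tested on simulated data.

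The comparison and the 44 gene lists were chosen with earlier results of these data known, so lists are described by counts and medians, with no set test. Named genes were the 15 largest changes past the threshold in each direction, the 10 smallest p, up to 8 called or the 3 smallest p of each list, and a preset group including Ccl2 and Ppara; some of these genes are not reported here. Outside this rule, and chosen after their values were seen, are Trem2, Gpnmb, Cd68, Itgax, Adgre1, Csf1r, C1qa, Clec4f, Ccl7, Cxcl16, Il1rn, Ccl5, Cxcl10, Tnf, H2-Aa, Cd74 and Col3a1. Alternatives were RLE scaling, no filter, DESeq2 1.42.0, voom of limma 3.58.1 with sample weights, the replicate number as a block, the 6 libraries alone, groups from treatment tags, the omission of each library in turn, pancreas genes left out and a minimum fold of 1.5.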

Additional observations from a re-analysis of the deposited data

Results flagged for a closer look

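The summed exocrine pancreas genes were 291 CPM in 1 chow library, against 5.56 to 7.85 CPM in the other 3, a gap that sets that library apart from its group. The summed erythroid genes were 779 CPM in 1 C18:1 library, against 283 to 339 CPM in the other 3. The summed neutrophil genes were 31.3 CPM in 1 C18:1 library, against 15.5 to 16.2 CPM in the other 3. The check was run in the chow and C18:1 groups, for each of the 11 called genes and for the pancreas, erythroid, neutrophil and cholangiocyte lists. Chance sets about 1 in 20 groups apart in this way, so some of these flags may come by chance. The groups of 3, MASH and C18:1-leucine, are too small for this check, and their values are given above.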

How the results depend on the processing

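Against 11 called genes, no filter on low counts gave 30 (10 of the 11 among them, without Mmp12), the 6 libraries alone 51 (7 of the 11), DESeq2 945 and voom 617 (all 11 in both). The treatment tags place C18:1-leucine replicate 1 in C18:1 and C18:1 replicate 1 in MASH. Groups from these tags and both of these libraries left out each gave 0 calls, with 2340 and 2140 genes under an unadjusted p of 0.05. Only C18:1-leucine replicate 1 moved to C18:1 (chosen after seeing the data) and a minimum fold of 1.5 also gave 0, with 1472 and 422 such genes. With each library left out the count ranged from 0 to 61. It was 1 without chow replicate 2, 5 without chow replicate 3 or 4, 7 without chow replicate 1, 2 without MASH replicate 2, 0 without MASH replicate 3, 6 without MASH replicate 4, 20 without C18:1 replicate 2, 61 without C18:1 replicate 3, 0 without C18:1-leucine replicate 1 or 2, and 55 without its replicate 4. RLE scaling and leaving out pancreas genes gave 11. The replicate block gave 35 calls, without Galnt6; only numbers 2 and 4 are shared by the groups, so the numbers were not taken to pair the samples. The 5 called list members became 10 with no filter, 14 with the 6 libraries alone, 8 with the replicate block, 127 by DESeq2, 73 by voom, 0 under both tag groupings, without both tag-disagreeing libraries and under the minimum fold, and 0 to 18 with a library left out. Of the genes printed here, 3 changed sign. With a library left out, Cyp4a14 ran from −1.25 to 0.36 (positive without MASH replicate 2), Acta2 from −0.87 to 0.18 (positive without MASH replicate 3) and Spp1 from −1.46 to 0.47 (positive without MASH replicate 4). The cause was not tested. Tnf, Ccl7 and Pdcd1 rest on few counts, so their values carry wide intervals.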

Other observations

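The authors' deposited table of comparisons whose log2 fold changes correlated best with those given here (Pearson r = 0.9239 across 15672 genes, which are not independent) held 6 genes past an adjusted p of 0.05, 1 higher and 5 lower. All 6 were among the 11 genes called here. In the authors' deposited table Ccl2 had a log2 fold change of −1.86 with an adjusted p of 0.04, Iqgap1 −0.86 with 0.0267, and Mmp13 −2.68 with 0.0677.

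Endothelial genes had a median log2 fold change of −0.03 over 13 genes (−0.15 to 0.06 as libraries were left out). Of these, 1 was lower at an unadjusted p under 0.05 (10.1% of all genes), with 0 calls by edgeR, DESeq2 and voom. Acute phase genes had a median of −0.15 over 18 genes, with 1 lower at that p and 0 calls by the 3 tools, and this median ran from −0.74 to 0.31 as libraries were left out. Cell cycle genes had 9 of 19 lower at an unadjusted p under 0.05 (10.1% of all genes), 4 without C18:1-leucine replicate 1 (8.12%) and 4 without replicate 2 (7.00%). EdgeR and voom called 0 of them and DESeq2 1. The median log2 fold change of the cell cycle list was −0.92, and −0.22 without MASH replicate 4. Lower without overlap between groups were 2 of the 19, against 12.0% of all genes.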
